A study of Mus musculus with 4 samples.

Results

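The 6 genes described here build caveolae and close their necks: Cav1, Cav2, Ptrf, Sdpr, Prkcdbp and Plvap. They were chosen by name, without a threshold on a measured value, and are 6 of the 27998 genes measured. All 6 were detected, and all 6 passed the minimum of 50 UMIs in every comparison of endocardial with coronary cells and of stages below. Caveolae are flask-shaped pits of the plasma membrane that are abundant in the capillary endothelium of the heart. Cav1 and Cav2 encode caveolins, the membrane proteins of the pit. Ptrf (also called Cavin1), Sdpr (Cavin2) and Prkcdbp (Cavin3) encode cavins, which coat the caveolins from the cytoplasm. Plvap encodes the protein from which the diaphragms across the openings of caveolae, fenestrae and transendothelial channels are built, and it is known as a marker of permeable endothelium. The sum of Cav1, Cav2, Ptrf, Sdpr and Prkcdbp is called the coat sum below.

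Hearts of C57Bl6J mice without a genetic or drug treatment at 4 ages (E12, E15, P2 and 8 weeks, called adult) were used, and CD31+/CD45- cells were sorted from pools of 37, 48, 21 and 6 animals. Every stage was profiled as 1 10x Genomics library. A stage thus has no replicate, its cells cannot stand in for animals, and neither stages nor classes were compared by a test. Values are unique molecular identifiers (UMIs), each tagging 1 captured transcript at its 3' end, and a level is given as CPM (counts per 1e6: UMIs of the gene divided by all UMIs of the group of cells). Every interval is an exact 95% interval for counting error only and holds no variation between animals. Intervals of levels and ratios take UMIs as independent, so they also hold no clustering of a gene's UMIs in cells. At E12 the 5732 barcodes with 452 or more UMIs were used, and the other files held 6062 (E15), 5884 (P2) and 4242 (adult) cells. The median depth was 1241, 1013, 4531.5 and 1510 UMIs per cell in the order of the stages, and digestion, removal of dead cells and re-sorting differed between stages. Any pair of libraries shared at most 60 barcodes.

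Cells were classed by marker UMIs. Endocardial cells held more UMIs of Npr3 and Tmem108 than of Fabp4, Cldn5 and Aplnr, and coronary cells (CoEC) held at least 2 UMIs of Fabp4, Cldn5 and Aplnr and more than of Npr3 and Tmem108. Artery cells held at least 3 UMIs of Cxcl12, Glul, Alpl and Nebl, and valve cells at least 2 of Cldn11, Enpp2 and Aqp8, so these 2 classes overlap with the first pair. There were 1716, 2115, 1082 and 75 endocardial cells and 113, 1254, 4596 and 4077 coronary cells, in order of age. The E12 coronary and adult endocardial classes are therefore small. Without cells that held 2 or more UMIs of both marker sets, 550 of the 1082 P2 and 43 of the 75 adult endocardial cells were left. A wider margin asked for at least 3 UMIs and 2 more than the other set. It left 199 of the 1716 E12 and 362 of the 2115 E15 endocardial cells, so most embryonic endocardial cells rest on few marker UMIs. Cells in no class numbered 3615, 2615, 151 and 74.

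The endocardial and coronary labels held against genes that the rule did not use, with limits, but the coronary label is weak at E12. The endocardial check genes Nfatc1, Cytl1, Igfbp5, Hapln1 and Hand2 summed to 1033, 1361, 2502 and 3075 CPM in endocardial cells, and to 309, 290, 669 and 247 CPM in coronary cells. The coronary check genes Gpihbp1, Cd36, Rgcc, Sparcl1 and Apln summed to 202, 1754, 4456 and 8686 CPM in coronary cells and to 13.7 to 374 CPM in endocardial cells. The lymphatic genes Lyve1, Prox1, Mmrn1, Flt4 and Ccl21a reached 749 CPM in E12 coronary cells and 1032 CPM in P2 coronary cells, and all 5 were detected in both. In E12 coronary cells the coronary check genes (202 CPM) thus lay below the endocardial check genes (309 CPM) and the lymphatic genes. Against E12 endocardial cells (13.7 and 1033 CPM) they still had more of the coronary and less of the endocardial check genes. The fibroblast genes Col1a1, Col1a2, Col3a1, Pdgfra and Dcn reached 2534 CPM in adult endocardial cells, where Col1a1 was at 0. At E12, E15 and P2 they stood at 962, 913 and 1100 CPM in endocardial cells. The erythroid genes Hbb-bs, Hbb-bt, Hba-a1, Hba-a2 and Alas2 stood at 1266.5 CPM in E12 endocardial and 1400 CPM in E15 coronary cells. The immediate-early genes Fos, Jun, Junb, Egr1, Atf3 and Ier2 were at 453 and 810 CPM in E12 and E15 coronary cells against 4481 and 6154 CPM in P2 and adult coronary cells. The part of these cells and of this response in the results was not tested, but values without them are given where a result changed. The artery label failed at the embryonic stages. In the 332 E12 artery cells Cxcl12 gave 97.2% of the rule's UMIs and Alpl none, the endothelial genes Pecam1, Cdh5, Tie1, Egfl7, Kdr and Emcn summed to 268 CPM against 1992 CPM in coronary cells, and the fibroblast genes stood at 2991 CPM. In the 69 E15 artery cells the fibroblast genes stood at 6224 CPM and the endothelial genes at 936 CPM. These groups are called Cxcl12-high cells below, and the name artery is kept for P2 and the adult, where 679 of 711 and 1859 of 1875 of the cells were also coronary. The artery check genes Gja4, Gja5, Hey1, Sema3g and Efnb2 summed to 924.5 CPM in P2 artery and 330 CPM in P2 coronary cells. In the adult they summed to 566 and 408 CPM. Adult artery cells, 44.2% of all adult cells, held 2352 CPM of the mature capillary genes Timp4, Car4 and Rgcc. All adult coronary cells held 2410 CPM, so the adult artery label is weak.

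Cav2 and Cav1 lie next to each other on the plus strand of chromosome 6 (GRCm38, 17281185 to 17289115 and 17306335 to 17341452) with 17219 bases between them. Sdpr lies on chromosome 1 (51289126 to 51302960, plus strand), Ptrf on chromosome 11 (100956733 to 100970887, minus strand), Prkcdbp on chromosome 7 (105480083 to 105482300, minus strand) and Plvap on chromosome 8 (71497765 to 71511752, minus strand). No gene overlapped any of them on the same strand. The bases before the start are shown for the neighbours Cav2 and Cav1 and for Sdpr, the plus-strand genes whose RefSeq start matched that of the locus. RefSeq (GRCm38.p6) held entries for 4 of the 6 genes, not for Plvap and Prkcdbp. Ptrf had an entry but lies on the minus strand and is not shown. Its class preference in the data below was that of Cav1 and Cav2, so the windows are no comparison by class preference. Each line gives the 250 bases before the gene's start on the plus strand, 5′ to 3′, with every GGAA or its complement TTCC, the core letters bound by ETS factors, in capitals.
Cav2, chr6:17280935-17281184: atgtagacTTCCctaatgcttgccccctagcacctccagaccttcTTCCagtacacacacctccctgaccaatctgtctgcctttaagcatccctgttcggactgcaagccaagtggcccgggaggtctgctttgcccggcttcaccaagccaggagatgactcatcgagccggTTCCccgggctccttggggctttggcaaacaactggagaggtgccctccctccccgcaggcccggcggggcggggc
Cav1, chr6:17306085-17306334: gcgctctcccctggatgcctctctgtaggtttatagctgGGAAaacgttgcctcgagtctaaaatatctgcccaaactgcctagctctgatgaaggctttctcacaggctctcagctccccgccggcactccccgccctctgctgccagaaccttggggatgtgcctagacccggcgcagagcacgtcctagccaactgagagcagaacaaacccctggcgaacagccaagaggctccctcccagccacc
Sdpr, chr1:51288876-51289125: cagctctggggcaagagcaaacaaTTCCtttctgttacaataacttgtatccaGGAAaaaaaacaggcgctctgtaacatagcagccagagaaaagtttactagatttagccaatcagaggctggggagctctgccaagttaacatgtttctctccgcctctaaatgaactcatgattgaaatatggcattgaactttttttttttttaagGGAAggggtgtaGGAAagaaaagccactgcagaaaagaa
The letters GGAA occurred 3 times before Cav2, 1 time before Cav1 and 4 times before Sdpr, counting both strands, and 93.5% of all 32851 windows of this length held them. The letters CACCC occurred 1 time before Sdpr and not before Cav1 or Cav2, and 52.0% of windows held them. The letters AACAAT occurred 1 time before Sdpr, where they share their last base with a TTCC, and not before the caveolins, and 9.42% of windows held them. The share of G and C was 62.0% for Cav2, 59.6% for Cav1 and 40.4% for Sdpr, so the caveolin windows were alike in base composition and the Sdpr window was not. A match is a description of letters and not of a bound site.

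In endocardial cells all 6 genes were higher in the adult than at E12, with a limit from free RNA at E12 that is given below. Cav1, the caveolin needed to form the pit, stood at 84.5, 336, 694 and 833 CPM in order of age. Its adult over E12 ratio was 9.86 (8.02 to 12.1), the highest of the 6 in this class. Cav2, the partner that joins Cav1 in the membrane, stood at 57.4, 119, 286 and 398 CPM, with a ratio of 6.93 (5.22 to 9.14). Both caveolins were thus higher at every later stage, and the steps from E12 to E15 and from E15 to P2 were 3.97-fold and 2.07-fold for Cav1 and 2.08-fold and 2.40-fold for Cav2.

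The cavins followed at different rates in the endocardium. Ptrf, which is required for caveolae in every tissue, stood at 86.5, 127, 198 and 225 CPM, and the last pair did not differ beyond counting error (ratio 1.14, 0.832 to 1.53). Sdpr, a cavin that helps to shape endothelial caveolae, was the most abundant coat gene of the endocardium at each stage, at 315, 619, 1336 and 1787 CPM. Prkcdbp stood at 165, 218, 330 and 484 CPM. Adult over E12 ratios were 2.60 (1.86 to 3.58) for Ptrf, 5.67 (5.00 to 6.42) for Sdpr and 2.93 (2.34 to 3.66) for Prkcdbp. The ratios of Ptrf and Prkcdbp were thus below those of Cav1, Cav2 and Sdpr, and their intervals did not meet those of the other genes.

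Plvap was also higher at each later stage in the endocardium, at 324, 543, 860 and 1782 CPM. Its adult over E12 ratio of 5.50 (4.85 to 6.23) was close to that of the coat sum, 5.26 (4.83 to 5.73). In the adult endocardium Plvap reached the level of Sdpr. The share of endocardial cells with a Plvap UMI was 33.0%, 41.8%, 84.4% and 85.3%, and 13.6%, 21.9%, 29.5% and 44.0% when each cell was thinned to 450 UMIs. The higher level was therefore also seen at equal depth. Thinning left out 51 of 2115 E15 endocardial cells and 30 of 1254 E15 coronary cells, and none at the other stages.

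Counted over all genes, a member was called when 2 groups differed by 2-fold or more and held at least 50 UMIs together. In endocardial cells 6 of 6 members were higher in the adult than at E12, where 17.7% of all genes tested were higher and 20.1% lower. From E12 to E15, Cav1 and Cav2 passed 2-fold upwards (background 2.46% higher and 2.67% lower). From E15 to P2, Cav1, Cav2 and Sdpr did so (11.9% higher, 4.07% lower), and from P2 to the adult only Plvap did (8.18% higher, 17.4% lower). No member was 2-fold lower in any of these 4 comparisons. Several of the calls lay near the line. Cav2 from E12 to E15 (2.08) lost its call under 5 settings, down to 1.67. From E15 to P2, Cav1 (2.07) lost it under 7 settings, down to 1.78, Sdpr under 2, down to 1.86, and Cav2 when thinned to 450 UMIs (just under 2-fold). Plvap from P2 to the adult (2.07) lost it under 3 settings, down to 1.47, and Prkcdbp from E12 to the adult was 1.96 when thinned.

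In coronary cells the 5 coat genes also had higher levels in the adult than at E12, while Plvap had not. The limit from free RNA at E12 applies here too, and the E12 coronary label is weak. Cav1 stood at 243, 1279, 2120 and 1821 CPM in order of age, and Cav2 at 90.6, 273, 829 and 1070 CPM. Most of the difference in Cav1 lay between E12 and E15 (5.27-fold, 4.07 to 6.94), and the adult was below P2 (0.859, 0.843 to 0.876). Cav2 was higher at each step, last by 1.29-fold (1.26 to 1.33).

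Among the cavins, Sdpr had the largest difference between E12 and adult coronary cells. It stood at 103, 433, 1401 and 1705 CPM, a ratio of 16.6 (11.2 to 25.6). That interval rests on 25 UMIs in 113 cells at E12. It met the interval of Cav2 (11.8, 7.80 to 18.9), which rests on 22 UMIs at E12. With cells thinned to 450 UMIs and classed again, which left 22 coronary cells at E12, the Sdpr ratio was 8.55. Ptrf stood at 132, 267, 414 and 590 CPM (4.48, 3.17 to 6.55). Prkcdbp stood at 165, 330, 359 and 341 CPM, and the adult over E15 ratio was within counting error of 1 (1.03, 0.943 to 1.14).

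The coat sum of coronary cells was 733, 2582, 5122 and 5527 CPM, 7.54-fold (6.51 to 8.79) higher in the adult than at E12. Without cells that had 1% or more of their UMIs in immediate-early genes the ratio was 7.67. The last step, from P2 to the adult, was small at 1.08 (1.07 to 1.09). It fell below 1 when cells were thinned to 450 UMIs (0.971) and when coronary cells with a UMI of an endocardial check gene were left out (0.976).

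Plvap stood at 111, 67.9, 145 and 51.3 CPM in coronary cells, with 27, 114, 3436 and 369 UMIs behind these values. It was lower in the adult than at E12 (0.462, 0.312 to 0.710), lower at E15 than at E12 (0.611, 0.399 to 0.967) and lower in the adult than at P2 (0.353, 0.316 to 0.393). The 2.14-fold (1.78 to 2.60) higher level at P2 than at E15 did not keep its direction. Without coronary cells that held a UMI of an endocardial check gene, it was 0.865 (0.674 to 1.12). The share of coronary cells with a Plvap UMI was 16.8%, 7.82%, 24.1% and 2.82%, and 7.97%, 3.02%, 5.64% and 1.15% at 450 UMIs.

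Against the background of all genes, coronary Cav1, Cav2, Ptrf, Sdpr and Prkcdbp were called higher in the adult than at E12 (36.7% of genes were) and Plvap was called lower (11.3%). With classes without overlap this Plvap ratio was 0.785, and with an E12 cutoff of 1000 UMIs it was 0.532, so the call was lost under both. The same 5 were called higher at E15 than at E12, where 8.73% of genes were higher and 2.33% lower. Prkcdbp (2.00) and Ptrf (2.03) were at the 2-fold line there, and each lost its call under 4 settings, down to 1.82 for Prkcdbp and 1.37 for Ptrf. The adult over E12 call of Prkcdbp (2.07) was also lost under 4 settings, down to 1.61. Between E15 and P2, Cav2, Sdpr and Plvap were called higher (18.1% of genes) and no member lower (4.08%), and Plvap lost this call under 7 settings. Between P2 and the adult no member was higher (9.97%) and Plvap was lower (12.3%), a call lost with classes without overlap (0.603). More than 1 gene in 3 was thus called higher between E12 and adult coronary cells, and the members' count there stands against that background.

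**Figure D1:**
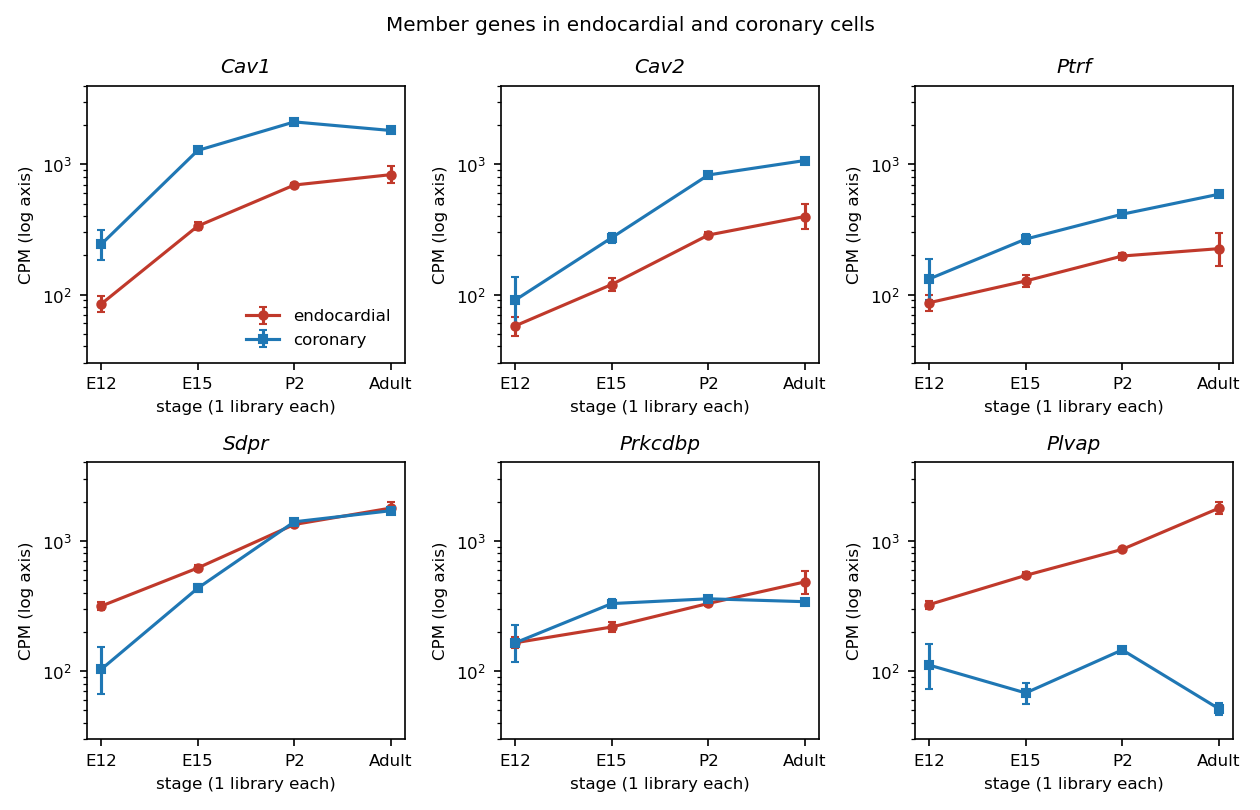
Level of each gene in CPM (log axis) against stage, in endocardial cells (circles) and coronary cells (squares), with bars for the exact 95% Poisson interval and 1 library per stage. Cav1, Cav2 and Ptrf lie higher in coronary cells, and the Plvap lines part, from 324 and 111 CPM at E12 to 1782 and 51.3 CPM in the adult.

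Classes of the same stage come from 1 library and shared its tissue handling. Cav1 was higher in coronary than in endocardial cells at every stage, by 2.87-fold (E12, 2.12 to 3.85), 3.81-fold (E15, 3.52 to 4.14), 3.06-fold (P2, 2.95 to 3.16) and 2.18-fold (adult, 1.88 to 2.55). For Cav2 the ratios were 1.58 (0.958 to 2.48), 2.29, 2.89 and 2.69, and for Ptrf 1.52 (1.02 to 2.22), 2.10, 2.10 and 2.62. At E12 the interval of Cav2 included equal levels, and at the later stages those of Cav2 and Ptrf did not.

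Sdpr went the other way before birth. It was lower in coronary cells at E12 (0.326, 0.210 to 0.485) and E15 (0.699, 0.639 to 0.764), and near equal at P2 (1.05, 1.02 to 1.08) and in the adult (0.954, 0.861 to 1.06). Prkcdbp had no steady direction, with ratios of 0.998 (0.703 to 1.38), 1.51 (1.34 to 1.71), 1.09 (1.03 to 1.15) and 0.705 (0.578 to 0.869). The cavins thus did not share a class preference.

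The coat sum did not differ between the classes beyond counting error at E12 (1.03, 0.881 to 1.21) and was higher in coronary cells afterwards (1.82, 1.74 to 1.90 for E15, then 1.80, 1.77 to 1.83 for P2 and 1.48, 1.38 to 1.59 for the adult). Plvap was lower in coronary cells at all 4 stages. Its ratio to the endocardium was 0.343 (E12, 0.225 to 0.503), 0.125 (E15, 0.102 to 0.151), 0.169 (P2, 0.162 to 0.177) and 0.0288 (adult, 0.0249 to 0.0334). Over the 14 alternative settings these ratios stayed below 1, between 0.00854 and 0.536. The 0.536 is an E12 value from cells thinned to 450 UMIs and classed again, with 22 coronary cells left. At P2 and in the adult the ratios moved by more than counting error under most settings. Leaving out coronary cells with an endocardial check UMI gave 0.0577 at P2 and 0.00854 in the adult, and leaving artery and valve cells out of the classes gave 0.0447 in the adult.

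In counts, Cav1 was called higher in E12 coronary cells (3.50% of genes were) and Sdpr and Plvap lower (16.1%). At the 3 later stages Cav1, Cav2 and Ptrf were called higher and Plvap lower, against 4.74% and 9.56% of genes (E15), 10.0% and 8.73% (P2), and 19.8% and 11.0% (adult). Single settings took some of these ratios past the 2-fold line. Cav1 was 1.89 at E12 with a wider margin between the classes and 1.97 in the adult with classes without overlap. With cells thinned to 450 UMIs and classed again, E12 Plvap was 0.536, E12 Sdpr 0.569 and adult Cav2 1.97. The E12 values of this setting rest on 22 coronary cells.

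**Figure D2:**
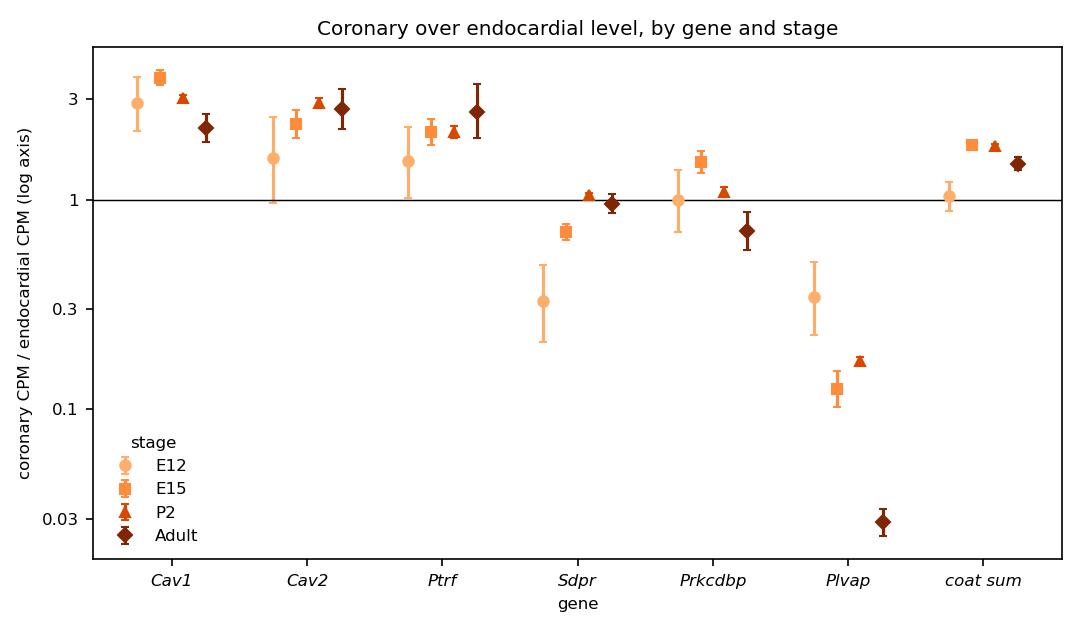
Ratio of coronary to endocardial CPM (log axis) for each gene and the coat sum, with 1 marker per stage, exact conditional binomial 95% bars and a line at equal levels. Cav1 lies above the line at all stages, Sdpr lies below it at E12 and E15, and Plvap lies below it throughout, down to 0.0288 in the adult.

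The make-up of the coat transcripts differed between the classes. UMIs are counted per captured transcript end, so shares of genes need no scaling by transcript length, although capture can differ between genes. In endocardial cells Sdpr led at each stage with 44.5%, 43.6%, 47.0% and 47.9% of coat UMIs, and Cav1 went from 11.9% (E12, 10.4 to 13.5) to 23.7% (E15, 22.3 to 25.1) and then stayed between 22.4% and 24.4%. In coronary cells Cav1 led with 33.2%, 49.6%, 41.4% and 32.9%. There Sdpr went from 14.0% (9.30 to 20.0) and 16.8% before birth to 27.4% (P2) and 30.9% (adult, 30.4 to 31.3), and Prkcdbp went from 22.5% (16.6 to 29.3) to 6.17% (5.94 to 6.41).

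The ratio of Cav1 to Sdpr UMIs puts this in 1 value. It was 0.268, 0.542, 0.519 and 0.467 in endocardial cells and 2.36, 2.96, 1.51 and 1.07 in coronary cells. It lay below 1 in the endocardium and above 1 in coronary cells at every stage, and the coronary ratio came nearest to 1 in the adult (1.04 to 1.10). Adult artery cells, 1859 of which were also coronary, had a ratio of 1.15 (1.12 to 1.19). The adult coronary ratio was not computed without them, so its side of 1 is not known for the other coronary cells. The ratio of Cav1 to its neighbour Cav2 varied less between the classes, at 1.47, 2.81, 2.42 and 2.10 in endocardial and 2.68, 4.68, 2.56 and 1.70 in coronary cells.

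**Figure D3:**
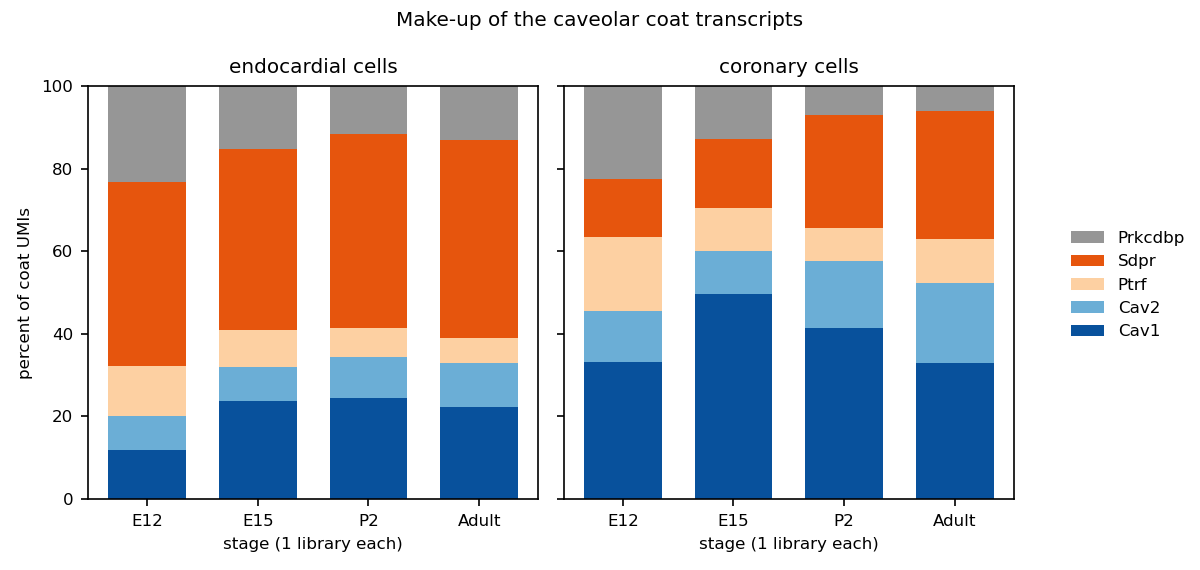
Percent of coat UMIs from each of the 5 coat genes, stacked to 100, for endocardial (left) and coronary cells (right) at each stage, 1 library per bar. Sdpr holds the largest part in endocardial cells (43.6% to 47.9%) and Cav1 in coronary cells (32.9% to 49.6%).

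Plvap was set against the coat by its UMIs per 100 coat UMIs, a measure that needs no scaling by all UMIs of the group. It still depends on depth through the classes, which are set by UMI counts. With cells thinned to 450 UMIs and classed again, coronary Plvap was 202, 58.95, 91.6 and 25.6 CPM in order of age. Only 22 coronary cells were left at E12 in this setting, so the 202 CPM is imprecise, beside 867, 3905 and 3900 at the later stages. The values without thinning were 111, 67.9, 145 and 51.3 CPM. In endocardial cells Plvap per 100 coat UMIs was 45.7 (42.0 to 49.7), 38.3, 30.3 (29.3 to 31.3) and 47.8 (42.1 to 54.2) in order of age, so the E12 and adult endocardium did not differ beyond counting error and both lay above P2. In coronary cells it was 15.2 (9.72 to 22.8), 2.63 (2.16 to 3.17), 2.84 (2.74 to 2.94) and 0.929 (0.836 to 1.03). Coronary cells had a near equal coat sum to the endocardium at E12, and a lower Plvap per coat already there. The adult coronary value moved most between settings, from 0.268 to 1.63.

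Valve cells, few except at P2 (21, 65, 427 and 22 cells), lay between endocardial and coronary cells for Plvap from E15 onwards. Of the 427 at P2, 235 were also coronary and 145 also endocardial, and of the 22 adult cells 15 and 5 were. Such shared cells can by themselves place the valve class between the other classes, and values without them were not computed. The Plvap level of valve cells was 114 (31.0 to 291), 153, 484 and 231 CPM, and Plvap per 100 coat UMIs was 19.1, 13.1, 15.9 and 7.61. At P2 valve cells had less Plvap than endocardial cells (0.562, 0.527 to 0.599) and a coat sum within 1.07-fold. The valve label is weak. P2 valve cells held 1885 CPM of lymphatic genes and 1657 CPM of fibroblast genes beside 1062 CPM of the valve check genes Postn, Wnt9b, Wnt4 and Pthlh, and without lymphatic marker cells 291 of the 427 were left, with Plvap at 545 CPM. Adult valve cells held 6334 CPM of fibroblast genes beside 3255 CPM of endothelial genes. The part of these other cells was not tested.

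Artery cells at P2 and in the adult had less Plvap than coronary cells as a whole, which include them, with 77.6 against 145 CPM at P2 and 16.3 against 51.3 CPM in the adult. Their coat sums were near those of all coronary cells, at 5379 and 5629 CPM. Among coronary cells alone, those in the artery rule had 0.361 (0.313 to 0.414) of the Plvap of the other coronary cells at P2, and for the adult the value was 0.183 (0.137 to 0.242). The Cxcl12-high cells of E12 had a Plvap level of 23.1 CPM and a coat sum of 280 CPM, the lowest coat sum of all 16 groups. Those of E15 had 101 and 1166 CPM, and the 14 among them that were coronary and held no fibroblast UMI had a coat sum of 3351 CPM.

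Ordered by Plvap, the adult, P2 and E15 endocardium led (1782, 860 and 543 CPM), then P2 valve cells (484) and E12 endocardium (324), and the intervals of the first 5 did not meet. From the E12 endocardium down to E15 (67.9) and adult coronary cells (51.3) each group's interval met that of its neighbour. The E12 Cxcl12-high cells (23.1) and adult artery cells (16.3) came last, with intervals that met. Ordered by the coat sum, adult artery (5629) and adult coronary cells (5527) led with intervals that met, and P2 artery (5379) and P2 coronary cells (5122) followed apart from each other.

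**Figure D4:**
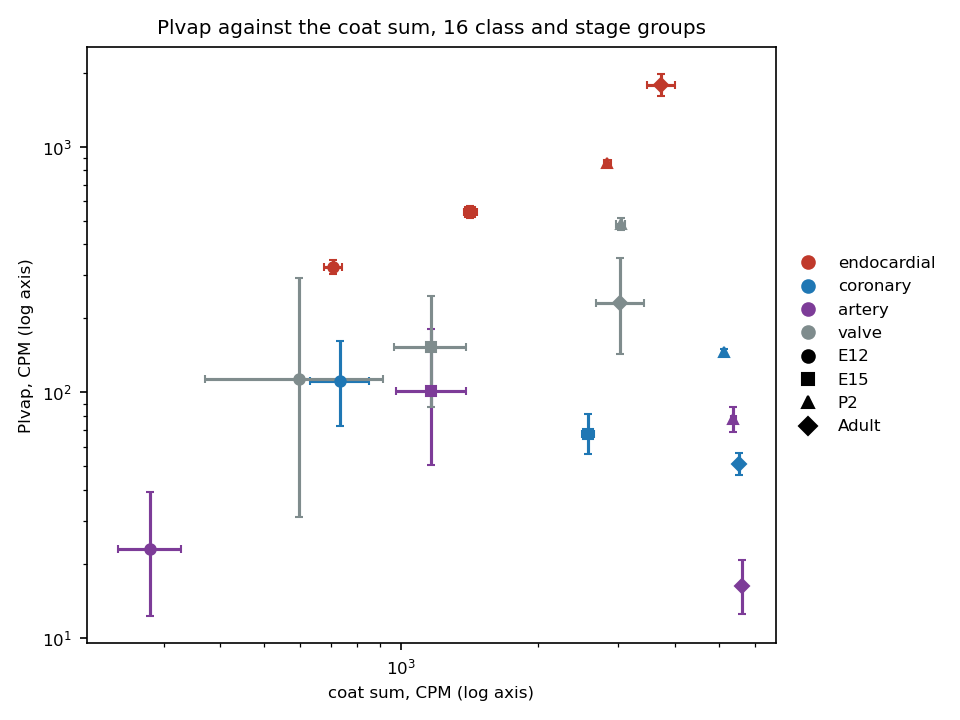
Plvap (CPM, log axis) against the coat sum (CPM, log axis) for the 16 groups of 4 classes (colours) at 4 stages (marker shapes), with exact 95% Poisson bars and overlap between the classes. Endocardial groups are higher on both axes at later stages, while coronary groups have higher coat sums at each later stage (733 to 5527 CPM) and Plvap levels between 51.3 and 145 CPM in no steady order.

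The low Plvap of coronary cells was unevenly spread over cells. In the adult, 115 of 4077 coronary cells held its 369 UMIs, and 41 of them, 1% of the class, held 75.3%. At P2, 1106 of 4596 cells held the 3436 UMIs, and 433 cells with 3 or more held 74.8%. The intervals of coronary Plvap levels and ratios do not hold this spread and are too narrow for it. In the endocardium 85.3% of adult cells held a Plvap UMI, with a mean of 5.81 UMIs in each of these.

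Coronary cells were therefore also grouped by at least 2 UMIs of marker lists. With the vein list (Vwf, Prss23 and Nr2f2), Plvap was 463 CPM in 198 adult cells against 22.9 CPM in the other coronary cells (20.2-fold, 16.4 to 25.0). At P2 it was 375 against 88.7 CPM (4.22-fold, 3.95 to 4.52) and at E15 192 against 60.9 CPM (3.16-fold, 1.77 to 5.32). With the mature capillary list (Timp4, Car4 and Rgcc) it was lower, at 52.5 against 268 CPM at P2 (0.196, 0.180 to 0.213) and 18.6 against 137 CPM in the adult (0.136, 0.107 to 0.172). Vein-marker cells thus had more Plvap and capillary-marker cells less. The vein list is not particular to coronary veins: it summed to 199, 256, 296 and 867 CPM in endocardial cells and to 280, 144, 209 and 157 CPM in coronary cells, in order of age.

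Other lists gave further high groups. With the lymphatic list Plvap was 320 CPM in 427 P2 cells and 507 CPM in 31 adult cells, against 121 and 45.5 CPM in the other coronary cells. With the large artery list (Fbln5, Gkn3 and Eln) it was 380 CPM in 1103 P2 cells (6.55-fold, 6.09 to 7.06) and 74.2 CPM in 492 adult cells (1.58-fold, 1.23 to 2.02). This list is not particular to arteries at P2. It summed there to 1026 CPM in endocardial, 1185 CPM in valve, 926 CPM in coronary and 1264 CPM in artery cells. P2 artery cells had only 77.6 CPM of Plvap. The large artery group was not examined without endocardial check UMIs. With the angiogenic capillary list (Kcne3, Apln and Esm1) it was 49.8 CPM at P2 and 8.69 CPM in the adult, the latter from 2 UMIs in 80 cells. With the dividing list (Top2a, Mki67, Ube2c and Ccnb2) it was 72.2 CPM at P2, and 0 UMIs were counted in 36 adult cells.

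Endocardial check genes moved with Plvap inside the coronary class. In the 158 adult coronary cells with at least 2 UMIs of these genes Plvap was 526 CPM, and in the 3655 without any it was 15.2 CPM (12.3 to 18.6). At P2 the values were 329 CPM in 1121 cells and 49.6 CPM in 2606 cells. These groups, and those of the next paragraph, were chosen after their values were seen.

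Within coronary cells without an endocardial check UMI, the vein list still marked higher Plvap. In the adult it was 222 CPM in 112 vein-marker cells (53 UMIs) against 6.90 CPM in the other 3543 (41 UMIs), a ratio of 32.2 (21.0 to 49.6). It was 203 against 30.3 CPM at P2 (6.72, 5.70 to 7.93) and 237 against 50.3 CPM at E15 (4.71, 2.23 to 9.05), while at E12 11 vein-marker cells with 2 UMIs gave 0.984 (0.107 to 4.42). Mature capillary cells had 23.9 against 108 CPM at P2 and 7.46 against 39.6 CPM in the adult, but no difference beyond counting error at E15 (0.987, 0.261 to 2.65). Lymphatic-list cells had 4.08-fold (3.31 to 4.99) more Plvap than the rest at P2 and 2.89-fold (1.02 to 6.64) at E15. The adult value of 217 against 14.5 CPM rests on 5 UMIs in 1 of 9 cells. In the adult 15.2% of the vein-marker cells held a Plvap UMI and 0.847% of the others.

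The coat genes were distributed otherwise over these coronary groups. The coat sum was higher in cells with the mature capillary list, by 1.52-fold (1.50 to 1.54) at P2 and 1.34-fold (1.31 to 1.37) in the adult. It was lower with the vein list (0.810 and 0.863) and with the lymphatic list (0.739 and 0.623). Plvap per 100 coat UMIs was 9.62 in adult vein-marker and 0.313 in adult capillary-marker cells.

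Single coat genes did not all follow the sum. In adult mature capillary cells Cav1 (1.35), Cav2 (1.53), Sdpr (1.56) and Ptrf (1.10) were above the other coronary cells and Prkcdbp was below (0.688, 0.633 to 0.748). In adult vein-marker cells Cav1 (0.716) and Cav2 (0.575) were lower, Sdpr (1.06, 0.987 to 1.14) and Ptrf (0.946, 0.832 to 1.07) were near equal, and Prkcdbp was higher (1.49, 1.29 to 1.70). P2 had the same directions for Cav1, Cav2 and Prkcdbp in both groups, with Prkcdbp at 0.710 in capillary-marker and 1.25 in vein-marker cells. Prkcdbp was thus the coat gene whose direction in both groups was that of Plvap.

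**Figure D5:**
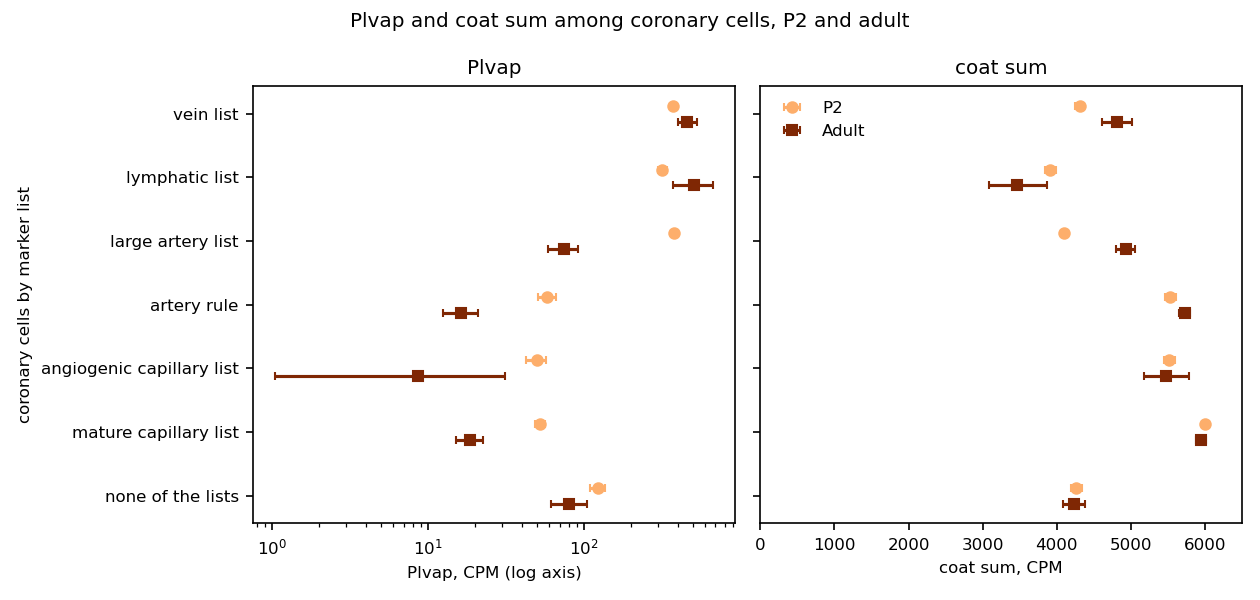
Plvap (left, log axis) and the coat sum (right, linear axis from 0) in CPM for coronary cells with at least 2 UMIs of a marker list, at P2 (circles) and in the adult (squares), with exact 95% Poisson bars. A cell can be in several groups. In the adult, vein-list and lymphatic-list cells lie at 463 and 507 CPM of Plvap, above the other groups plotted, and mature capillary cells hold the highest coat sums plotted (6007 and 5944 CPM).

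Cells with and without a Plvap UMI were also compared after thinning to 450 UMIs. In coronary cells the coat sum with a Plvap UMI was 0.610 (0.550 to 0.675) of that without at P2 and 0.715 (0.569 to 0.885) for adult cells. E12 and E15 gave 0.642 (0.0749 to 2.49) and 0.758 (0.522 to 1.06), within counting error of 1. In the cells with a Plvap UMI, endocardial check genes were 3.50-fold (P2) and 14.7-fold (adult) higher, vein genes 4.28-fold and 9.23-fold, lymphatic genes 3.11-fold and 7.06-fold, and valve check genes 2.77-fold and 11.6-fold, while coronary check genes were at 0.295 and 0.347. Endocardial check genes did not differ beyond counting error at E12 (0.889) and E15 (1.14), and lymphatic genes were lower at E15 (0.127, 0.00320 to 0.713). That E15 value rests on 1 lymphatic UMI in 37 cells. It goes the other way from the 2.89-fold higher Plvap of E15 lymphatic-list cells without an endocardial check UMI. In endocardial cells the coat ratio was 1.08, 1.02, 0.939 and 1.24 over the stages, and each interval included 1. These intervals ran from 0.831 to 1.75. Among single coat genes, Cav1 at P2 was lower in endocardial cells with a Plvap UMI (0.721, 0.554 to 0.931), and the other intervals of single genes in this class included 1.

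Free RNA can give UMIs in cells that do not express a gene. At E12, 35 cells with 20% or more hemoglobin UMIs and no endothelial UMI had a median depth of 1851 UMIs, and 2 of them (5.71%) held a Plvap UMI, at 30.8 CPM. Asking for no endothelial UMI also selects against free endothelial RNA, so these values can lie below the true background and are no floor. The 113 E12 coronary cells had a median depth of 1997 UMIs, a share of 16.8% and 111 CPM. At E15, 21 immune-marker cells without an endothelial UMI held no Plvap UMI. This allows a share of up to about 14.3%, an approximate limit and not an exact interval, beside the 7.82% of coronary cells. No such cells were found at P2 and 5 in the adult. Barcodes of E12 with 1 to 100 UMIs, which are mostly not cells, held Plvap at 232 CPM (198 to 269). This was above the level of E12 coronary cells and below that of the E12 endocardium. A CPM does not give the number of free UMIs per barcode. These barcodes, 156821 in number, held 169 Plvap UMIs, and the 113 coronary cells held 27. The part of free RNA in Plvap of E12 coronary cells was not tested. The coat sum of these barcodes was 781 CPM (718 to 848), against 709 CPM in E12 endocardial and 733 CPM in E12 coronary cells. Cav1 was 166 CPM there, between endocardial (84.5 CPM) and coronary cells (243 CPM) of E12. Sdpr was 293 CPM, between coronary (103 CPM) and endocardial cells (315 CPM). The part of free RNA in the E12 coat levels, and in ratios over E12, was not tested.

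Other genes that work with caveolae were taken as a list of 16, which includes the dynamins and EHD proteins that act at the neck, Nos3 and the fatty acid carrier Cd36. Between E12 and adult coronary cells 9 were testable and all 9 were 2-fold or more higher in the adult (36.7% of all genes were). Their median log2 ratio was 2.04 against 0.47 over all genes. The 9 held 31 or fewer UMIs each in E12 coronary cells and 83 or more in adult coronary cells. Each thus passed the UMI minimum through its adult UMIs. These classes held 242947 and 7188672 UMIs in all. A gene of few UMIs is therefore testable mainly if it is high in the adult, and this count and median lean that way. In endocardial cells 5 of 7 were 2-fold or more higher in the adult than at E12 (17.7% of all genes, median 1.99 against 0.03). Between coronary and endocardial cells, 1 of 5 was higher at E12 (3.50% of all genes were), 1 of 7 at E15 (4.74%), 2 of 11 at P2 (10.0%) and 3 of 9 in the adult (19.8%). None was lower at E12 and E15 (16.1% and 9.56% of all genes), 3 of 11 were at P2 (8.73%) and 1 of 9 in the adult (11.0%). Ehd2, an ATPase that stabilises caveolae at the membrane, stood at 54.2, 130, 329 and 340 CPM in endocardial and 128, 256, 595 and 541 CPM in coronary cells. Cd36 stood at 24.7, 409, 1766 and 3398 CPM in coronary cells and at 254 CPM or less in endocardial cells, and it is also 1 of the coronary check genes. Cav3 and Murc, the caveolin and cavin of muscle, had at most 4 and 8 UMIs in any of these 8 groups.

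Of 10 genes of barrier and permeability, Cldn5 was left out because it belongs to the class rule. Adult coronary cells had 2-fold or more higher levels than E12 coronary cells for 6 of 7 testable, Cdh5, Esam, Kdr, Flt1, Nrp1 and Gpihbp1. The other testable gene, Tjp1, stood at 111 CPM at E12 and 97.7 CPM in the adult. None was 2-fold lower (36.7% of all genes were higher and 11.3% lower), and the median log2 ratio was 2.12 against 0.47. This count leans towards genes higher in the adult as well, and Ocln (4.12 and 3.34 CPM, from 1 and 24 UMIs) was not testable. The comparison of adult coronary with adult endocardial cells called Cdh5, Esam, Kdr and Gpihbp1 higher (19.8% of all genes), with a median log2 ratio of 1.37 against 0.03 over all genes. Kdr, the main VEGF receptor, stood at 226, 293, 361 and 768 CPM in coronary and 143, 145, 150 and 134 CPM in endocardial cells, so its levels did not run with Plvap. Mfsd2a, which limits caveolar transport in the brain, had at most 2 UMIs in any of the 8 groups. The flotillins, scaffold proteins of other membrane domains, were low: Flot1 stood between 12.4 and 52.7 CPM and Flot2 between 10.2 and 52.7 CPM.

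The genes whose level was most like that of the members were ranked by Pearson's r of log2(CPM + 10) over the 14 class and stage groups with at least 50 cells, among 5874 genes with a mean of 20 CPM. These groups share cells and libraries, and the values are descriptions. Nearest to Plvap were Smoc1 (r = 0.969), Megf6 (0.948), Gpr182 (0.926), Pla2g7 (0.923) and Tmem2 (0.922), which all had their highest level in the adult endocardium. Nearest to the coat sum were Marc2 (0.977), Ehd2 (0.969), Sypl (0.965), Esam (0.964) and Tnfrsf1a (0.961), highest in P2 or adult artery cells. Among the members, Cav1 and Cav2 had r = 0.961, and Plvap with Cav1, Cav2, Ptrf, Sdpr and Prkcdbp had -0.01, -0.02, -0.31, 0.30 and 0.33.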

How the data were processed

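CD31+/CD45- cells were profiled in 4 libraries, 1 per stage. The authors deposited raw UMI counts, not normalized in any way, for each gene in each barcode, made with Cell Ranger 2.2 on the mm10 reference (submitters' processing notes and the study's methods). The E12 file holds all barcodes and the others only called cells. E12 barcodes with 452 or more UMIs were kept (88.7% of the UMIs). No doublet caller was run, and cells with 2 or more UMIs of both marker sets were left out as an alternative. Python 3.11.15 (numpy 2.4.6, scipy 1.17.1, pandas 2.3.3, matplotlib 3.10.9) summed UMIs per class and stage. Sums have exact Poisson, shares exact binomial and ratios exact conditional binomial 95% intervals. With 1 library per stage no p-value was computed. A gene was called over all genes tested at 2-fold or more and at least 50 UMIs in both groups together. List medians used log2(CPM + 1). Total UMIs were 8122358, 7079759, 29645059 and 7650091 from E12 to the adult, and a level of few UMIs is as imprecise as its interval. Members, classes and lists were chosen with earlier results of these data known. Named genes were the 6 members, the partner, barrier and flotillin lists and the 5 genes most like Plvap and the coat sum. Loci came from GENCODE M21 (GRCm38). Intervals and calls were run on simulated independent Poisson counts. These hold no clustering of UMIs in cells, so the intervals were not checked against it. Alternatives were limits on cells, other cell types, class overlap, depth, margin, mixed cells, denominator, weight and E12 cutoff, plus 5 chosen after seeing the data.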

Additional observations from a re-analysis of the deposited data

Results flagged for a closer look

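Some differences between stages went opposite ways in coronary and endocardial cells, with both intervals away from 1. The difference between the classes itself was not tested, since each stage has 1 library. Plvap was lower at E15 than at E12 in coronary cells (0.611) and higher in endocardial cells (1.68). From P2 to the adult Plvap had a ratio of 0.353 in coronary and 2.07 in endocardial cells, and from E12 to the adult 0.462 and 5.50. These Plvap directions were kept under each alternative setting run. Adult over E12 lay between 0.127 and 0.785 in coronary and between 3.91 and 5.78 in endocardial cells. The 0.127 came from cells thinned to 450 UMIs and classed again, with 22 coronary cells left at E12. No setting corrected for free RNA. The part of free RNA in Plvap of E12 coronary cells was not tested, which limits the coronary ratios over E12.

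From P2 to the adult, Cav1 had a ratio of 0.859 in coronary and 1.20 in endocardial cells, and Prkcdbp 0.950 and 1.46. The endocardial ratio of Prkcdbp was 0.976 with cells thinned to 450 UMIs and classed again, which left 554 P2 and 66 adult cells. With the classes kept, 12.2% (10.3 to 14.3) of P2 endocardial cells held a Prkcdbp UMI at 450 UMIs. For adult endocardial cells this share was 20.0% (11.65 to 30.8). The direction of the endocardial Prkcdbp ratio at equal depth thus depended on whether cells were classed again. Adult endocardial values rest on 75 cells with 2534 CPM of fibroblast genes, whose part was not tested.

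The E12 file also holds barcodes below the cutoff, which no comparison used. In the 156821 barcodes with 1 to 100 UMIs Plvap was 232 CPM and the coat sum 781 CPM, with Cav1 at 166 CPM. In the cells called at E12 the same levels were 183, 524 and 73.0 CPM. These levels were thus higher in the barcodes of low count than in all called cells together. The E12 endocardium had 324 CPM of Plvap and the E12 coronary cells 111 CPM, on either side of that level.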

How the results depend on the processing

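Every ratio of coronary to endocardial Plvap stayed below 1 under the settings run. Coat ratios stayed above 1 at the 3 later stages, and at E12 ran from 0.879 to 1.13. With upper limits on UMIs, genes and mitochondrial share, adult Plvap was 0.0222. With an endothelial UMI and few UMIs of other cell types required, Plvap was 0.120 at P2 and 0.0170 in the adult, and the coat 0.879 at E12 and 1.88 at P2. Classes without overlap gave Plvap 0.161 and 0.0447 and a P2 coat of 1.84. Cells thinned to 450 UMIs and classed again gave Plvap 0.536, 0.101, 0.101 and 0.0159 over the stages. Their coat values were 2.02, 2.13 and 1.63 at the 3 later stages. At E12 this setting left 22 coronary cells. A wider margin gave Plvap 0.149 at P2 and 0.0237 in the adult. Without mixed cells Plvap was 0.101 and 0.0226 and the coat 2.00 and 1.60 at these stages. Equal weight of cells gave an adult Plvap of 0.0195 and a P2 coat of 1.89. The cause of these shifts was not tested.

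Further alternatives were chosen after seeing the data. Without lymphatic marker cells P2 Plvap was 0.142 and the coat 1.89. With a Cldn5 or Aplnr UMI required Plvap was 0.129 at P2 and 0.0131 in the adult, and the P2 coat 1.90. Without endocardial check UMIs Plvap was 0.0577 and 0.00854, and the coat 1.92 at E15 and 2.05 at P2. Without immediate-early-high cells P2 Plvap was 0.179 and the coat 1.76.

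Some ratios between stages changed direction. Ptrf in P2 artery cells over E15 Cxcl12-high cells was 0.966 with few UMIs of other cell types, though these groups are not the same kind of cell. Thinned to 450 UMIs and classed again, adult over P2 was 0.946 for Cav2 in artery cells. In this setting it was 0.976 for Prkcdbp in endocardial cells and 0.971 for the coronary coat. For valve cells adult over P2 was 0 for Ptrf and 2.55 for Plvap, but only 4 adult valve cells were left. P2 over E15 was 0.628 for Prkcdbp in valve cells, with 16 cells left at E15. These valve values rest on too few cells to be read as changes of direction. Without endocardial check UMIs, coronary P2 over E15 Plvap was 0.865 and the adult over P2 coat 0.976. No paired analysis was possible because each stage has 1 library and no result comes from a test. Few cells or UMIs stand behind E12 coronary (113 cells, 27 Plvap UMIs), E12 valve (21 cells, 4 UMIs), adult valve (22 cells, 21 UMIs) and adult endocardial values (75 cells).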
